A study of Mus musculus with 2 samples.

Results

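Among the distal accessible sites of mouse spleen, 595 were relatively stronger in replicate 1 than in replicate 2. They were chosen by the signal ratio itself. Overlapping peaks of both libraries were merged into sites, of which there were 146575 in all and 73150 with a peak of each library. Of these, the 47557 autosomal sites with no peak within 500 bp of an annotated transcription start site (TSS) were kept as distal. The log2 ratio of the strongest signal of replicate 1 over that of replicate 2 was taken at each site, and the median of the kept sites was subtracted. Sites whose centred log2 ratio was +1 or above, 1.25% of the kept sites, are the members described here. The other 46962 kept sites, and within them the 2594 sites at -1 or below, were set beside them.

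The data are DNase-seq of spleen from male B6CASTF1/J mice aged 10 days, an F1 cross of C57BL/6 and CAST/EiJ parents. There was 1 group of 2 libraries, biological replicates 1 and 2. The labels name a different male for each, under the same donor identifier. No treatment was compared, and what separates the libraries (the animal, the preparation, the depth) cannot be told apart. With 1 library on each side of the ratio there was no replicate error for it, so all values below are descriptions and none is tested. Intervals in brackets are exact Clopper-Pearson 95% intervals, or order-statistic intervals for medians. They cover counting error over sites only, and the sites of a library are not independent of one another.

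DNase I cuts DNA where nucleosomes are displaced, so a peak marks a promoter, enhancer, insulator or silencer held open by proteins. Distal sites are often enhancers or insulators and are known to differ more between cell types than promoters. SP and KLF proteins bind GC-rich boxes and are common at CpG islands, CTCF binds insulators, and GATA proteins bind the enhancers of red cells, mast cells and other blood lineages. REST is a repressor known for keeping neuronal genes off outside neurons.

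The following 4 members are shown because they were among the 10 with the highest signal of replicate 1 and hold several of the consensus sequences counted below. All sequences are from the plus strand of the GRCm38.p6 reference (mm10), from RefSeq. Capitals mark matches to the consensus sequences of SP and KLF (2 forms), USF and MYC, NRF1, CREB, REST (2 forms), EBF, RFX, GATA and CTCF. The sites near Cbx7 and Mnt lie in introns of these genes, and those near Tex44 and Rbx1 are intergenic.
chr15:79927721-79927920 (nearest gene Cbx7): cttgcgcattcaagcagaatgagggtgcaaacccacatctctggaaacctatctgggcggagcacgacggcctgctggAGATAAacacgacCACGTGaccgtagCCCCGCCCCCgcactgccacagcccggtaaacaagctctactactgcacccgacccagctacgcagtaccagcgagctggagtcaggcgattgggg
chr11:74832201-74832400 (nearest gene Mnt): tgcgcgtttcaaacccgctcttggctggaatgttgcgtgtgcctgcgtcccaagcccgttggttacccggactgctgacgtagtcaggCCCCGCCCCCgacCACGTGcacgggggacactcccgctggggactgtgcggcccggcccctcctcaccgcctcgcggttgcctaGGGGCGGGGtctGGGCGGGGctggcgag
chr1:86434441-86434600 (nearest gene Tex44): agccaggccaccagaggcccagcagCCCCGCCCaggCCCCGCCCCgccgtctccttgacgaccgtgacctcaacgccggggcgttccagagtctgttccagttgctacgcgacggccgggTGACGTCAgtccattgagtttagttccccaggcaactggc
chr15:81523221-81523420 (nearest gene Rbx1): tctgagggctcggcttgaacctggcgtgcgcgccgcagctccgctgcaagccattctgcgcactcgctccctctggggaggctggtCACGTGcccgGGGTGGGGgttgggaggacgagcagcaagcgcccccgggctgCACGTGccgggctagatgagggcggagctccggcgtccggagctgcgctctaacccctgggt

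The next 4 hold the REST consensus in its long form, in which CAGCAC of the left part TTCAGCAC is followed by the right part, on either strand. They are shown because, of the 24 consensus sequences searched, this one had the largest ratio of its share in members to its share in the other kept sites. The REST sequences were among those chosen for the search after values were seen, so this rank is not that of a list fixed beforehand. The sites near Celf5, Fam155a and Xkr6 lie in introns of these genes and the site near Kcnh2 is intergenic. They were picked after their values were seen.
chr10:81477661-81477840 (nearest gene Celf5): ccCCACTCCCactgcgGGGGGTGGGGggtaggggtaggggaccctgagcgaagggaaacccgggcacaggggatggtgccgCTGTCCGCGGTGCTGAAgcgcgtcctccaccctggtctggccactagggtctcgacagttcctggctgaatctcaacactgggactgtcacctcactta
chr5:24357561-24357720 (nearest gene Kcnh2): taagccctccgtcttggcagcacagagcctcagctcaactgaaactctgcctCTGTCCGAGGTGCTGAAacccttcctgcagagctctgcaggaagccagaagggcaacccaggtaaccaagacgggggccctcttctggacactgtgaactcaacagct
chr8:9769181-9769360 (nearest gene Fam155a): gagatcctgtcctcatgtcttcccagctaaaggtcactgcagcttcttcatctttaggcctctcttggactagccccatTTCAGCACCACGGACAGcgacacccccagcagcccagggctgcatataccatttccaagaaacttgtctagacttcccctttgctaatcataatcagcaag
chr14:63681601-63681800 (nearest gene Xkr6): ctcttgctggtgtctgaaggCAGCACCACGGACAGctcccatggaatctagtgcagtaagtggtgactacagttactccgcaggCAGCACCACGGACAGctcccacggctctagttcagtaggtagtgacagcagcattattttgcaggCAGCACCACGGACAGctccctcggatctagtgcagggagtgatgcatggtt

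The last 3 are the members with the largest ratios and hold no capitals. The pair near Kcnh5 is repeat sequence, and the site near Gorasp2 is mostly unique.
chr12:74803841-74804020 (nearest gene Kcnh5): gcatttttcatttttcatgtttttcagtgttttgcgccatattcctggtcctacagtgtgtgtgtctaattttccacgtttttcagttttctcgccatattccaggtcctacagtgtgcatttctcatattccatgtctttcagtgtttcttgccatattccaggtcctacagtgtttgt
chr12:74804181-74804380 (nearest gene Kcnh5): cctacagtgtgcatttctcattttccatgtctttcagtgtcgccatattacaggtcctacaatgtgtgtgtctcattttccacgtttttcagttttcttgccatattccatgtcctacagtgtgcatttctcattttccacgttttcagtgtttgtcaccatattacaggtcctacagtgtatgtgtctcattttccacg
chr2:70615061-70615280 (nearest gene Gorasp2): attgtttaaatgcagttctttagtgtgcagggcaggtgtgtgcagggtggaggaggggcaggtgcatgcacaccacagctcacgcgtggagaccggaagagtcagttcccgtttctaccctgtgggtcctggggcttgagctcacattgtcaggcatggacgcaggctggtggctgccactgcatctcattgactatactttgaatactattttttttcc

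The libraries differed genome-wide. Replicate 1 had 130476 peaks and replicate 2 had 95847, and no source used here gives the number of reads behind them. The strongest signals were higher in replicate 1 at most kept sites, with a median log2 ratio of 0.70 (SD over sites 0.56), which is 1.63-fold. At the promoters of 13323 protein-coding genes with a promoter peak of each library the median was 1.28. Promoters of 22 of 24 annotated red cell genes, 16 of 21 B cell genes and 14 of 20 T cell genes had a peak of both libraries. So did 13 of 14 stem and progenitor, 12 of 12 proliferation, 11 of 20 macrophage and monocyte and 9 of 17 neutrophil genes. It held for 10 of 17 stroma, 7 of 11 dendritic cell, 5 of 12 endothelium and 5 of 14 megakaryocyte genes. Others were NK cell (3 of 12), mast cell, basophil and eosinophil (3 of 15), smooth muscle (4 of 10) and mesothelium (1 of 10). Of genes of other tissues, 6 of 12 neuron, 4 of 12 pancreas, 4 of 10 adipocyte and 0 of 12 liver genes did. The share over all annotated protein-coding genes is not given here, so these counts cannot tell the tissue from others.

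The deposited signal was a density scaled for read depth. Members had a median signal of 2.37 (2.19 to 2.52) in replicate 1 and of 0.653 (0.607 to 0.699) in replicate 2. The other kept sites had medians of 0.934 in replicate 1 and 0.599 in replicate 2. Members therefore stood out by a high signal in replicate 1, while their replicate 2 signals were close to those of the other sites. In replicate 1, 565 members were at or above the median of the kept sites, and in replicate 2, 329 were. Member signals ranged from 0.660 to 38.2 in replicate 1 and from 0.193 to 11.6 in replicate 2. The rule used these values.

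After centring, members lay between log2 1.00 and 1.98 with a median of 1.10, and the deposited signals differed by 3.26-fold to 6.41-fold with a median of 3.49-fold. Most lay close to the threshold: 449 (75.5%) were under 1.2 and 16 were at 1.5 or above. Just inside it were sites near Tnfrsf21, Grpel2 and Ccl28, each at 1.00. Just outside were sites near Gosr1 and Krt20 (1.00 each after rounding) and Clec3b (0.998). The threshold thus cuts a continuous distribution. Signals were whole multiples of a step in each library, and the weakest member rested on 176 steps in replicate 1 and the weakest in replicate 2 on 46. No source used here says what 1 step counts.

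**Figure D1:**
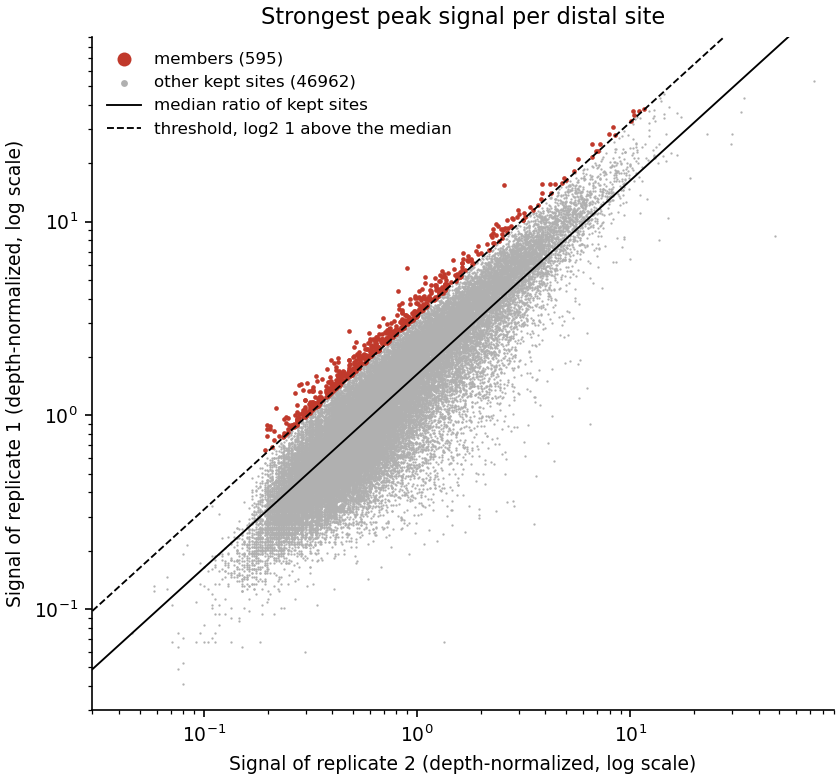
Each point is a distal site, with its strongest signal in replicate 1 on the vertical and in replicate 2 on the horizontal axis, both depth-normalized and on log scales. The 595 members (red) lie above the dashed threshold line along the upper edge of one continuous cloud, with no gap to the 46962 other kept sites (grey).

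By deciles of mean log2 signal, the share of members was 0% in the lowest, 2.33% in the ninth and 1.68% in the highest decile. The rule used both signals, so this is a description of the rule's effect. The Spearman correlation across the 47557 kept sites between the centred ratio and the signal of replicate 1, which is part of the ratio, was 0.579. With GC content, which the rule did not use, it was 0.357. With the ratio centred within deciles of mean signal instead, 442 sites reached +1. Their median GC content was 53.6% (52.9 to 54.8), 42.1% (37.4 to 46.8) held the SP and KLF short form described below, and 9.95% (7.33 to 13.1) held a GATA sequence.

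Members were GC-rich. Their median GC content was 55.2% (54.6 to 56.1), against 51.5% at the other kept sites and 45.8% at the sites at -1 or below. They held a median of 5 CpG dinucleotides, against 3 and 2. GC content of 60% or above was found in 168 members (28.2%, 24.65 to 32.04), against 8.32% of the other kept sites. By class of GC content, 82 of 1316 kept sites with 65% or above were members (6.23%, 4.99 to 7.68), against 39 of 5766 with under 45% (0.676%, 0.481 to 0.923). The sites at -1 or below ran the other way, with 0.228% and 18.6% of the same classes. In the highest class the median centred log2 ratio of all kept sites was 0.49 and in the lowest -0.34, so the ratio of the whole class shifted and not the members alone. With the ratio centred within deciles of GC content instead, 686 sites reached +1, of which 322 overlapped members, and their median GC content was 47.8%.

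**Figure D2:**
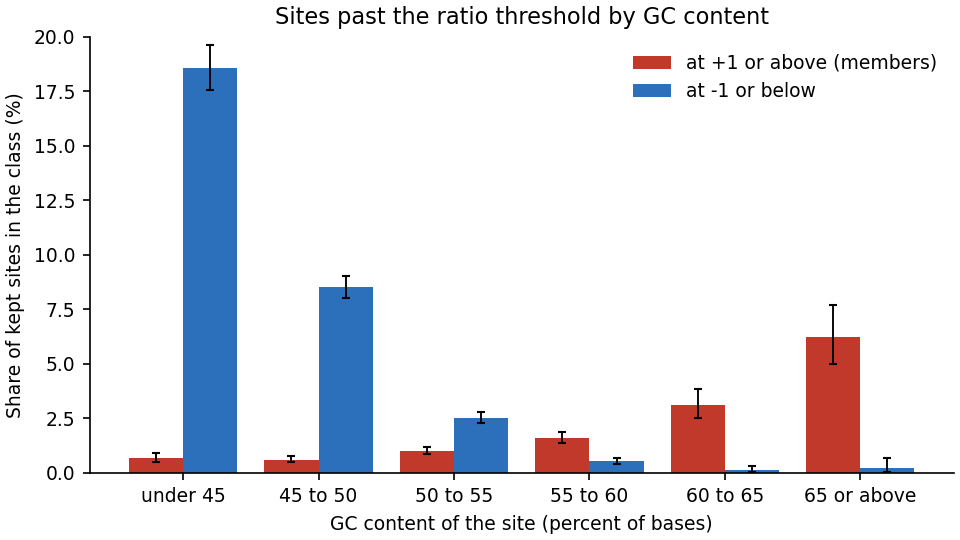
Share of all kept distal sites (vertical, in percent) that were members at +1 or above (red) or at -1 or below (blue), by GC content of the site in percent of bases; bars carry exact 95% intervals over sites. The red share is 0.676% under 45% GC and 6.23% at 65% or above, and the blue share is 18.6% and 0.228%.

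CpG islands are stretches of unmethylated CpG-rich DNA, known mostly from promoters. Of the members, 117 (19.7%, 16.5 to 23.1) were island-like, with at least 50% GC and a ratio of observed over expected CpG of at least 0.6, against 6.24% of the other kept sites and 0.501% of those at -1 or below. These 117 were the stronger members, with median signals of 4.30 in replicate 1 and 1.17 in replicate 2. The 478 other members had 2.12 and 0.597. The median centred log2 ratio was 1.10 in both sets. Island-like members lay closer to genes, with a median of 7216 bp to the nearest protein-coding TSS against 14028.5 bp for the 478 others. The same comparison within the other kept sites is not given here. Although no peak overlapped a TSS window of the GENCODE annotation, 43 members (7.23%, 5.28 to 9.61) lay within 500 bp of a TSS listed by RefSeq, against 4.22% of the other kept sites.

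Members were spread over introns, exons and intergenic DNA in shares like those of the other kept sites. Introns held 300 members (50.4%, 46.3 to 54.5), against 51.6% of the others, intergenic DNA held 238 (40%, 36.0 to 44.1), against 40.2%, and exons held 57 (9.58%, 7.34 to 12.2), against 8.23%. The intervals of all 3 shares cover the share of the other sites. The median distance to the nearest protein-coding TSS was 12451 bp (10786 to 14297), against 11889 bp. It was 19822.5 bp with the ratio centred within deciles of signal and 17095.5 bp with centring within deciles of GC content. Exonic members had the highest median GC content, 61.7%, against 55% in introns and 54.5% in intergenic DNA. The GC content of the other kept sites by place is not given here. Members came from all 19 autosomes, and their share of the kept sites ran from 1.53% on chromosome 10 to 0.969% on chromosome 12. Width did not separate them, with a median of 200 bp in members and in the others.

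Most members had no other member nearby. Of the 595, 80 (13.4%) had another member within 50 kb, against 6.24% of the other kept sites with a member in that distance. The kept sites within 50 kb of a member had a median centred log2 ratio of 0.13 (median over members). The nearest gene had a promoter peak of each library for 470 members (79.0%, against 80.9% for the other kept sites). Centred on the median of all 13323 such promoters, which is higher than that of the distal sites, the promoter ratio of these genes had a median of 0.05. None of the 470 reached +1 on that scale, but only 7 of the 13323 promoters (0.0525%) did. In deposited signals, the promoters of 46 of the 470 (9.79%) reached the lowest fold of the members, 3.26, against 6.55% of the 13323.

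Consensus sequences rich in G and C were found more often in members than in the other kept sites. Matches were counted in the 200 bp around the middle of a site, on both strands. CCNCNCCC, the short form for SP and KLF factors, was in 291 members (48.9%, 44.8 to 53.0), against 26.9% of the other kept sites and 15.5% of the sites at -1 or below. GGGGCGGGG, the GC box of the same factors, was in 62 members (10.4%, 8.08 to 13.2), against 1.97% and 0.424%. Every GC box contains the short form on one strand, so all 62 held both. GCATGCGC, bound by NRF1, a regulator of mitochondrial and housekeeping genes, was in 21 members (3.53%, 2.20 to 5.34), against 0.660%. The shares of the other kept sites were also weighted to the members' GC deciles, which gave 35.9%, 3.53% and 0.908%. The weighted shares lay below the intervals of the members.

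Sequences of other families also differed. The CACGTG, REST, CTCF, RFX, NFY and TEAD sequences were chosen for the search after values of these data were seen. CACGTG, bound by USF, MYC and TFE proteins, was in 58 members (9.75%, 7.49 to 12.4), against 4.23% of the other kept sites, or 4.61% after weighting. TGACGTCA, bound by CREB and ATF proteins, was in 11 (1.85%, 0.926 to 3.28), against 0.351%, or 0.486% after weighting. The consensus of EBF, the factor that sets up the B cell programme, was in 21 (3.53%, 2.20 to 5.34), against 1.05%, or 1.17% after weighting. TTCAGCAC, the left part of the REST consensus, was in 29 (4.87%, 3.29 to 6.93), against 1.25%, or 1.30% after weighting. The long REST form was in 13 (2.18%, 1.17 to 3.71), against 0.317%, or 0.409% after weighting, and in 1 of the 2594 sites at -1 or below.

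GATA, CTCF and NFE2 sequences were found less often in members. AGATAA or TGATAA, bound by GATA factors, was in 49 members (8.24%, 6.15 to 10.7), against 16.7% of the other kept sites, 13.3% after weighting and 24.2% of the sites at -1 or below. The CTCF consensus was in 49 (8.24%, 6.15 to 10.7), against 14.4%, or 13.7% after weighting. GCTGANTCA, bound by NFE2 and MAF proteins, was in 4 (0.672%, 0.183 to 1.71), against 1.85%, or 1.89% after weighting.

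**Figure D3:**
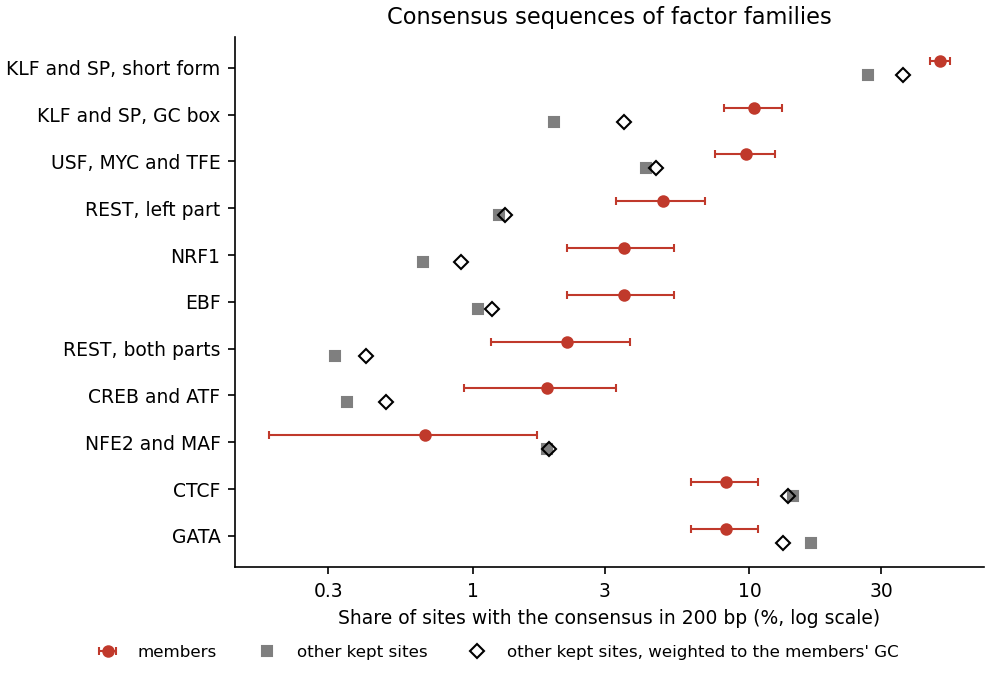
Share of sites with a consensus sequence in the 200 bp around the middle, in percent on a log scale, by factor family; members in red with exact 95% intervals, other kept sites as grey squares, and the same weighted to the members' GC deciles as open diamonds. From SP and KLF (48.9% of members) down to CREB and ATF (1.85%) the members' intervals lie above both comparisons, and for NFE2 and MAF, CTCF and GATA they lie below.

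Several of these differences depended on how the ratio was centred. Among the 686 sites at +1 or above after centring within GC deciles, CCNCNCCC was in 26.8%, against 27.2% of the other sites, the GATA sequences were in 15.2%, against 16.7%, and the CTCF consensus was in 15.6%, against 14.3%, which is the other direction. The long REST form (1.46%, against 0.324%), TTCAGCAC (3.21%, against 1.26%), GCATGCGC (1.60%, against 0.683%), the GC box (3.64%, against 2.05%), TGACGTCA (0.875%, against 0.363%) and CACGTG (6.56%, against 4.26%) were still in a larger share of them. The EBF consensus was in 1.46%, against 1.07%, so most of that difference was gone, and GCTGANTCA was in 1.02%, against 1.85%.

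The remaining sequences searched were GAGGAAGT, ACCGGAAG or CAGGAAGT (ETS), TGTGGTT (RUNX), TGANTCA (AP-1), the IRF consensus, TTGCNNAA (C/EBP), CTTTGAT (TCF and LEF), ATGCAAAT (POU factors), TTCCNGGAA (STAT), GGGANNNCC (NF-kB), CAGCTG or CAGATG (helix-loop-helix factors), GTTGCCA (RFX), CCAAT (NFY) and CATTCC (TEAD). Their member intervals covered the share of the other kept sites weighted to the members' GC. ETS sequences, for example, were in 9.92% of members (7.63 to 12.6) and in 8.54% of the others after weighting. Without weighting, GGGANNNCC and CATTCC differed. GGGANNNCC was in 16.0% of members (13.1 to 19.2), against 10.3% of the other kept sites, or 13.2% after weighting. CATTCC was in 6.05% (4.27 to 8.28), against 8.42%, or 8.23% after weighting. Among the 686 sites centred within GC deciles, some of the remaining sequences were also in a larger share than in the other sites. ATGCAAAT was in 2.33%, against 1.22%, the IRF consensus in 3.79%, against 2.40%, and TTCCNGGAA in 1.02%, against 0.664%. TGTGGTT was in 8.45%, against 6.76%, and TTGCNNAA in 10.2%, against 8.19%. Others were in a smaller share, such as GGGANNNCC (8.31%, against 10.4%) and CAGCTG or CAGATG (29.3%, against 32.1%). These shares carry no intervals. Of the 24 sequences searched, 48 members held none. The matching share of the other kept sites is not given here, so this count cannot be compared. Each GGGGCGGGG match contains a CCNCNCCC match on the other strand, TGANTCA lies within GCTGANTCA, and the REST forms share CAGCAC, so these are not separate counts.

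Matches of the long REST form and of CTCF sat in the middle of members and under footprints, the short protected stretches that bound proteins leave in the cut pattern. The nearest long REST match lay a median of 8.5 bp from the middle of the 13 members, against 5.5 bp in 149 other kept sites. A footprint of each library overlapped it in all 13, against 99.3% (replicate 1) and 90.6% (replicate 2) of the 149. CTCF matches lay a median of 7 bp from the middle of the 49 members, also 7 bp in the others, and carried a footprint of replicate 1 in all 49 and of replicate 2 in 44. CCNCNCCC matches lay a median of 18 bp from the middle of members, against 34 bp in the others. Footprints overlapped them in 86.9% (replicate 1) and 61.5% (replicate 2) of members, against 61.7% and 41.7% of the others. Members also had more footprints of replicate 1 per site (median 4, against 3), and its part in these shares was not tested. The GATA matches of members lay further out, a median of 65 bp from the middle against 47 bp. Footprints overlapped them in 38.8% (25.2 to 53.8, replicate 1) and 12.2% (4.63 to 24.8, replicate 2) of members, against 31.0% and 22.6% of the others, and both intervals cover the share of the others.

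Footprints were found in nearly all members. Those of replicate 1 were in 594 members (99.8%), against 96.1% of the other kept sites, and those of replicate 2 were in 570 (95.8%, 93.9 to 97.3), against 91.9%. The median number was 4 of replicate 1 and 3 of replicate 2 in members, and 3 of each in the others. Every member also had a peak in the shorter deposited list of replicate 1, and 445 (74.8%, 71.1 to 78.2) had one in that of replicate 2, against 78.8% and 70.8% of the other kept sites. Signals and footprints come from the same reads, so they are not separate support for the ratio.

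The 34 members with either REST form had nearest genes of many kinds. Chosen after their values were seen, those named here include Celf5, an RNA-binding protein, Slc8a2, a sodium-calcium exchanger, Nxph1, a neurexin ligand, and Camk2n2, an inhibitor of CaM kinase, but also Lep, the leptin gene of fat cells, Ifnl2, an interferon, and Podxl, a sialomucin. The site near Kcnh2, a potassium channel gene, had signals of 4.01 in replicate 1 and 1.12 in replicate 2, which gave a centred log2 ratio of 1.14. The site in Celf5 had 2.12 and 0.607 (1.10), and that in Fam155a had 2.55 and 0.649 (1.27). The site in an intron of Xkr6 had 7.78 and 2.30 (1.05) and holds the long form 3 times in its 200 bases, as the sequence above shows. In all, 21 of the 34 lay in introns, and their median GC content was 56.3%, against 55% in the other 561 members. The list of neuronal genes chosen for this work touched 1 of the 595 members, so no theme was counted for the 34.

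The 10 members with the highest signal of replicate 1 were GC-rich. Their GC content ran from 60.5% to 71.5%. The highest was in an intron of Cbx7, a Polycomb protein, where replicate 1 had 38.2 and replicate 2 had 11.6 (centred log2 ratio 1.01). Intergenic sites near Ccne1, which encodes cyclin E1, near Sp4, itself a GC-box factor, and near Yy1 had 37.4, 37.1 and 35.5 in replicate 1 and 11.0, 10.3 and 10.4 in replicate 2. An intron of Mnt, a MAX partner that opposes MYC, had 28.5 and 7.97 (1.13) and holds CACGTG beside a GC box. An intergenic site 49699 bp downstream of the TSS of Rbx1, a subunit of cullin ubiquitin ligases, had 25.2 and 6.62 (1.23) and holds CACGTG at 2 places. The site near Sp4 lay 741 bp upstream of its nearest TSS and that in Sertad3 863 bp downstream of its own, so they are close to promoters although outside the 500 bp window.

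**Figure D4:**
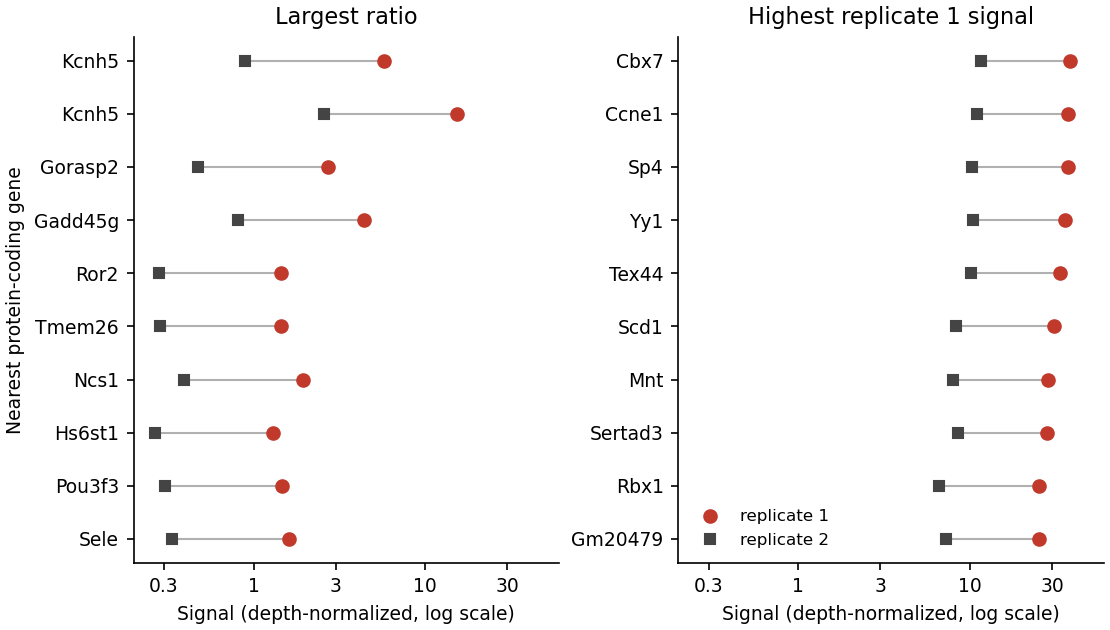
Signals of replicate 1 (red circles) and replicate 2 (dark squares), depth-normalized and on a log scale, at the 10 members with the largest centred ratio (left) and the 10 with the highest replicate 1 signal (right), by nearest protein-coding gene. Members with repeated sequence, defined below, were left out of both. The site near Cbx7 has 38.2 and 11.6, and that near Kcnh5 with the largest ratio 5.75 and 0.896.

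Few members had large ratios. The 16 members at 1.5 or above had a median GC content of 53.0% (44.4 to 58.3), and the interval covers the 55.2% of all members. Their median signals were 1.84 in replicate 1 and 0.385 in replicate 2. The 130 members at 1.2 to 1.5 had a median GC content of 55.5% and median signals of 2.67 and 0.674. The 449 under 1.2 had 55.2%, 2.27 and 0.657. The rule used these signals. After the pair near Kcnh5 came an intergenic site 46405 bp upstream of Gorasp2, which encodes a Golgi stacking protein, with 2.72 and 0.477 (1.81). A site 237467 bp downstream of the TSS of Gadd45g, a stress-induced growth arrest gene, had 4.40 and 0.812 (1.73). Sites near Ror2, a Wnt receptor, and in an intron of Tmem26 had 1.44 and 1.45 in replicate 1 and 0.281 and 0.285 in replicate 2, at 1.65 each. Next came a site in an intron of Smim20 (1.63), which has repeated sequence as defined below. Sites near Ncs1, a neuronal calcium sensor (1.59), and Hs6st1, a heparan sulfate sulfotransferase (1.58), followed. After them came Pou3f3, a POU factor (1.55), and Sele, which encodes E-selectin (1.55). The Sele site held a CTCF consensus.

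The members had 553 different nearest protein-coding genes. Of these, 514 had 1 member, 36 had 2 and 3 had 3. The last were Pced1b, Iqsec1, which encodes an exchange factor for ARF GTPases, and Pde4d, a cAMP phosphodiesterase. They were nearest to many kept sites, so their members were 3 of 26, 3 of 28 and 3 of 41 sites. Kcnh5 and Clec11a had 2 of 2 each. The strongest of the Pde4d sites, in an intron, had 11.5 in replicate 1 and 2.97 in replicate 2 (1.24). The 3 windows of 50 kb with most members held 3 each. They lay at Dnaic1 and Cntfr on chromosome 4, at Pias4 and Dapk3 on chromosome 10, and at Srrm3 and Hspb1 on chromosome 5. In Dapk3, which encodes a death-associated protein kinase, 2 adjacent exonic sites of 71.8% and 75.8% GC had 4.60 and 5.09 in replicate 1 and 1.30 and 1.55 in replicate 2.

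Genes on 19 lists of cell type and tissue markers were the nearest gene of 14 members (2.35%, 1.29 to 3.92), against 1.87% of the other kept sites. B cell genes had 3 members (0.504%, 0.104 to 1.47, against 0.221% of the other kept sites). The nearest genes were Bcl11a and Ebf1, which encode lineage transcription factors, and Cd79b, a subunit of the B cell receptor. The Bcl11a site was intergenic, 162882 bp downstream of the TSS. The Cd79b site, in an intron of the neighbouring Scn4a, had 3.30 in replicate 1 and 0.888 in replicate 2 (1.19). Endothelial genes had 3 (0.504%, 0.104 to 1.47, against 0.106%). Stab2, a scavenger receptor of sinusoidal endothelium, was nearest to 2, and Kdr, a VEGF receptor, to 1, which lay 48013 bp upstream. T cell Ets1 and megakaryocyte Itgb3 had 1 each (0.168%, against 0.124% for T cell and 0.0852% for megakaryocyte genes). Pancreas genes had 2, nearest to Ptf1a and Bhlha15 (0.336%, 0.0407 to 1.21, against 0.0362%). Adipocyte Lep, liver Cps1, mesothelial Upk3b and neuronal Slc17a7 had 1 each (0.168%, against 0.0319% to 0.0809% for these lists). The Lep site lay 77609 bp upstream and the Cps1 site 58345 bp downstream of the nearest TSS of the gene. The intervals of all these lists but pancreas cover the share of the other kept sites, and each rests on 1 to 3 members. Red cell genes had 0 members, against 136 of the other kept sites (0.290%), among them 18 of the 2594 sites at -1 or below (0.694%). With 595 members, a count of 0 allows a share of up to 0.504% by a limit of 3 counts, or 0.618% by the exact interval, so a lower share of red cell genes was not detectable with this number of sites. NK cell, macrophage and monocyte, neutrophil, dendritic cell, and mast cell with basophil and eosinophil genes had 0 members too. So did stem and progenitor, stroma, smooth muscle and proliferation genes. In the other kept sites the shares of these lists ran from 0.0447% (NK cell) to 0.213% (stem and progenitor). All lie below the same limits, so a lower share was not detectable for these lists either.

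A regulatory feature annotated by RefSeq overlapped 3 members (0.504%, 0.104 to 1.47), against 0.632% of the other kept sites. In the members all 3 were enhancers. Named after their values were seen, they include a site near Gng2 and a site 10100 bp upstream of Fosb, an AP-1 subunit. The Fosb site had 9.19 in replicate 1 and 2.47 in replicate 2 (1.19).

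Fewer bases of members were masked as repeat than of the other kept sites. A median of 5% of their bases was soft-masked as repeat in the reference, against 8.13% at the other kept sites and 10.5% at the sites at -1 or below. No base was masked in 276 members (46.4%, 42.3 to 50.5), against 39.7%, and at least 50% of bases in 37 (6.22%, 4.42 to 8.47), against 8.65%. A perfect tandem repeat of units of up to 6 bases was in 49 (8.24%, 6.15 to 10.7), against 7.07%. Repeated sequence means that at least 50% of the 32-base words of a site occur again in the genome. It was found in 5 members (0.840%, 0.273 to 1.95), against 1.36% of the other kept sites and 4.39% of those at -1 or below. The member intervals of the tandem repeat and repeated sequence shares cover the shares of the other kept sites. The strongest of the 5 lay in introns of Osbpl10 (2.47 and 0.682) and Tmem267 (2.36 and 0.590) and near Fcho1 (1.75 and 0.498). Short reads from such sites cannot be placed with certainty. Repeat families are not named, since no annotation of them was used here.

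The 2 members with the largest ratios were copies of 1 repeat. The site chr12:74804181-74804380, 373051 bp downstream of the TSS of the potassium channel gene Kcnh5, had 5.75 in replicate 1, 0.896 in replicate 2 and the largest centred ratio of all, 1.98. Its neighbour chr12:74803841-74804020 had 15.4 and 2.56 (1.88). The masked share was 70.5% and 89.4%, and 33.7% and 28.9% of their 32-base words occurred elsewhere. The stretch of 540 bases that spans both was most like itself at a shift of 58 bases, with 62.4% of bases identical, and the 2 sites were 88.3% identical over 180 aligned positions. A pair of members near Sfi1 on chromosome 11, with 1.86 and 2.64 in replicate 1 and 0.406 and 0.662 in replicate 2, was 81.9% to 84.4% identical to them.

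Copies of this repeat lay at both ends of the ratio. Of all kept sites, 22 aligned to the Kcnh5 site over at least 100 positions at 75% identity or more. Among these 22 were 6 members (27.3%, against 1.25% of all kept sites), the other 2 near Vmn1r2 (1.48) and Nbea (1.08). A further 7 were at -1 or below, against 2594 of the 47557 kept sites. The Kcnh5 site used for the alignment was picked for its ratio. It and its neighbour are among the 6, so that choice partly sets the count of members. The centred log2 ratio of the 22 ran from -3.21 to 1.98 with a median of -0.14. The lowest was at chr9:3002041-3002240, near the start of the assembled chromosome 9, with 8.39 in replicate 1 and 47.7 in replicate 2, and all of its 32-base words occurred elsewhere. In 10 of the 22, but in none of the 6 members, at least 50% of the words did. In the 6 members 8.66% to 33.7% of the words did. The comparison was made after the values were seen, and the part of misplaced reads in these values was not tested.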

How the data were processed

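DNase-seq peaks of 2 libraries were used, aligned to mm10 per the deposited README. Each library has 2 peak lists, and the longer was used. The signal of a peak is a density that the authors scaled for read depth before they deposited it. Per the deposited README each list came from its own library without pooling, and no source used here names the aligner, the peak caller or their versions. Signal values under 400 steps were all whole, within 0.05 of a step, when divided by their library's step (0.00375 in replicate 1, 0.00419 in replicate 2). Deposited footprints carry the constant 0.01, so only their positions were used.

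Peaks overlapping by at least 1 bp were merged, and the strongest signal per library was kept. TSSs came from GENCODE M21, with places taken at the site's middle. GC content, masked bases and 32-base words came from GRCm38.p6. Python 3.11.15, numpy 2.4.6 and scipy 1.17.1 were used, and the rule was checked on simulated peaks.

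Members, gene lists (19) and consensus sequences were chosen with earlier results of these data known, and some, including the REST, CTCF, CACGTG, RFX, NFY and TEAD sequences and the repeat alignment, after these values were seen. Members named are the 10 with the largest ratio and the 10 strongest in replicate 1 (without repeated sequence, and at or above the median of kept sites in replicate 1), the genes with most members, list genes, the densest clusters, the sites at the threshold and the strongest with repeated sequence. Not every one is printed.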

Additional observations from a re-analysis of the deposited data

How the results depend on the processing

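The 595 members became 195 with the shorter deposited lists (194 of the 595 stayed), 80 among sites at or above the median signal in both libraries, 16 at a threshold of 1.5, and 13510 without centring, where the genome-wide difference between the libraries alone carries many sites past +1. Their median GC content of 55.2% became 56.8% with the shorter lists, 57.0% among the strong sites, 53.0% at the threshold of 1.5, 53.9% without centring, 53.6% with centring within deciles of signal and 47.8% with centring within deciles of GC content. The last, where each GC class has its own median, is below the 51.5% of the other kept sites of the main setting; the cause of the other shifts was not tested. The share of members near listed genes (2.35%) was 0% among the strong sites and at the threshold of 1.5, where 80 and 16 sites remained. The share with repeated sequence (0.840%) was 0% among the strong sites, 6.25% at the threshold of 1.5 and 0% by construction without such sites. Over all results, 59 of the values under the alternatives stayed within the interval of the main value (for the count, within 1.5 times) and 39 did not.

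No paired analysis was possible because there is 1 group. Leaving out a library leaves no ratio; the share of members with a footprint, 95.6% for both libraries, was 95.8% to 99.8% with 1 library left out. Counting error over 595 sites and the lack of a second library on each side of the ratio limit the precision.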
